A study of Danio rerio with 14 samples.

Results

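The members described here were 64618 H3K27ac peaks of wild-type zebrafish embryos that were overlapped, by at least 1 bp, in both libraries of MZsox19b embryos. They made up 51.4% of the 125602 wild-type (WT) peaks on chromosomes 1 to 25, with chromosome 16 from 36 to 37 Mb left out. At these shared sites the question was whether the order of the peaks, from weakest to strongest, differed between the genotypes by more than it differed between the MZsox19b replicates, and whether the peaks became wider or narrower.

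Acetylation of lysine 27 of histone H3 (H3K27ac) marks active enhancers and active promoters, and trimethylation of lysine 4 (H3K4me3) marks promoters, so that an H3K27ac peak without H3K4me3 is usually read as a candidate enhancer. Sox19b is a maternally supplied SoxB1 transcription factor of the zebrafish. Together with the Pou-family factor Pou5f3 it takes part in zygotic genome activation, when the embryo begins to transcribe its own genes and acquires H3K27ac.

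All libraries were ChIP-seq of whole AB/TL embryos collected 4.3 hours after fertilization, labelled dome stage. The stage of the mutants was set by WT embryos of the same age. The study reports that developmental landmarks appeared later in MZsox19b than in WT embryos. Whether the embryos used here differed in stage was not tested. WT H3K27ac was 1 library and MZsox19b H3K27ac was 2 replicates (r1 and r2). MZsox19b embryos lacked maternal and zygotic Sox19b through a TALEN-made premature stop codon, and other SoxB1 genes were intact in them. WT H3K4me3 (1 library) divided the members into those with and those without the promoter mark. MZsox19b H3K4me3 and the H3K27ac and H3K4me3 libraries of MZspg embryos, which lack Pou5f3, were 1 library each and are used only where named. The WT and MZspg H3K27ac libraries were each prepared from pooled ChIP material, the MZsox19b libraries each from a single ChIP, and nuclei of several days were combined. With a single WT library, the spread among WT samples is not known. A difference between WT and MZsox19b that recurs in r1 and r2 cannot be told apart from a property of that WT library, which both comparisons share.

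Each deposited peak list gave, for every peak, its ends, its summit and its fold enrichment over input. The lists held 125602 peaks in WT, 141070 in r1 and 172867 in r2 on the chromosomes used, and covered 50.58, 89.19 and 109.0 Mb. The number of reads behind a peak was not in the lists, so the depth at single sites is unknown. Median fold enrichment at the members was 2.91 in WT, 4.40 in r1 and 4.32 in r2. Over all peaks used it was 2.62 in WT, 2.62 in r1 and 2.35 in r2, so the higher MZsox19b values held at the members. There the overlapping peak of highest fold enrichment was taken. Because the values at the members differed in this general way, each member was given its percentile by fold enrichment among all members in each library (0 weakest, 100 strongest). A rank shift is the MZsox19b percentile minus the WT percentile, in points. Ranks of this kind show which sites moved relative to the other members, not whether H3K27ac rose or fell in absolute amount.

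WT peaks that were members were stronger than the others, with a median fold enrichment of 2.91 against 2.44 for the 60984 WT peaks that were not. They also carried H3K4me3 more often, in 40.7% against 20.3%. Of all WT peaks, 3.63% were overlapped in r1 only, 10.2% in r2 only and 34.7% in neither.

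The order of the members differed more between WT and either replicate than between the replicates. The median absolute shift was 17.2 points between WT and r1, 19.3 points between WT and r2 and 7.93 points between r1 and r2. An absolute shift of 20 points or more was found for 29077 members between WT and r1 (45.0%), for 31405 between WT and r2 (48.6%) and for 11676 between the replicates (18.1%). Among the 36878 members matched one to one, that is with 1 peak in each list and nothing else overlapping, the shares were 40.6%, 44.8% and 16.9%. These keep the ranks among all members. Ranked among themselves, one-to-one members gave 41.3%, 44.4% and 22.0%.

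**Figure D1:**
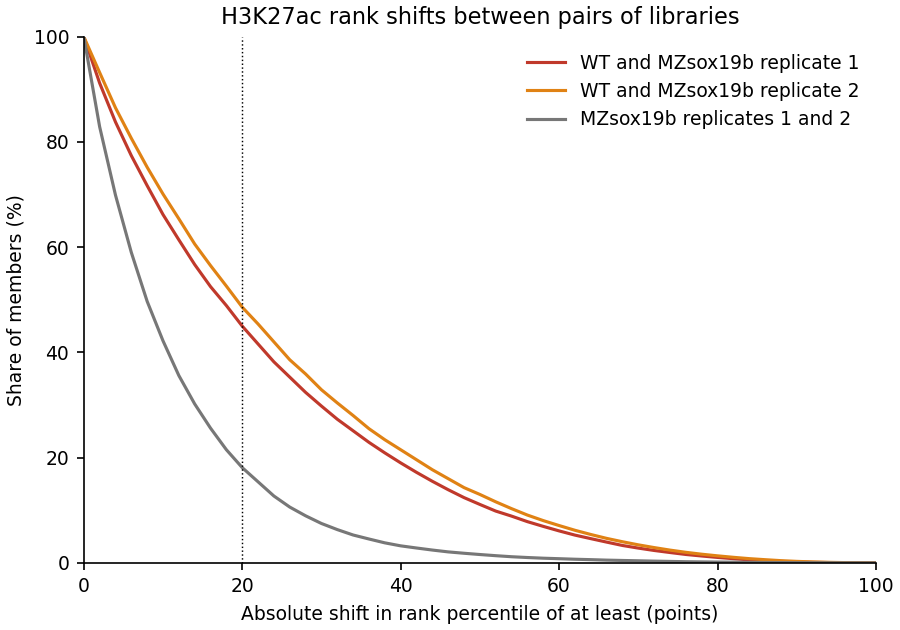
Share of the 64618 members (y axis, %) whose absolute rank shift was at least the value on the x axis (percentile points), for each pair of libraries; the dotted line is at 20 points. The curves of WT against r1 and against r2 lie close to each other, at 45.0% and 48.6% at the dotted line, and above the curve of r1 against r2, at 18.1%.

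A member was called raised or lowered in MZsox19b when both replicates shifted the same way by at least 20 points and the smaller shift exceeded the difference between the replicates. By this rule 10951 members were raised (16.9% of all) and 10768 were lowered (16.7%). The near balance follows from ranking the same members in each library. When percentiles were instead taken over each whole list, 19736 members were raised (30.5%) and 2298 lowered (3.56%), so the split between the directions belongs to the ranking and not to the embryos alone. The linear model (limma, fold enrichment on the log2 scale after quantile normalization, two-sided, Benjamini-Hochberg adjustment over all members) called 0 members higher (0%) and 0 lower (0%). Its median absolute log2 difference between the genotypes was 0.488 over the members. Centred on the median instead, the same model called 3433 members higher (5.31%) and 3862 lower (5.98%). With 1 WT library it has to assume that WT varies as the MZsox19b replicates do, and an exact permutation of 1 library against 2 cannot give a p below 0.333, so the raised and lowered sites are a description of these 3 libraries.

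Lowered and raised members were peaks of different kinds, but their differences in fold enrichment follow in part from the calling rule. A member at the bottom of the WT order could not be called lowered, and one at the top could not be called raised. Lowered members were in WT fairly strong, with a median fold enrichment of 3.56 and a median width of 426 bp. In r1 and r2 their medians were 2.81 and 2.73 in fold enrichment and 386 and 470 bp in width. The MZsox19b summit lay a median of 67.0 bp (r1) and 68.0 bp (r2) from the WT summit, and 73.1% of them were matched one to one, against 57.1% of all members. At 3.73% of the lowered members the matched peaks of r1 and r2 did not overlap each other, against 0.0274% of the raised and 0.480% of the remaining members.

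Raised members were weak and narrow in WT, with a median fold enrichment of 2.34 and a median width of 230 bp. Their low WT fold enrichment is likewise set in part by the calling rule. The peaks they were matched to had median fold enrichments of 7.18 in r1 and 6.93 in r2, widths of 1946 and 2216 bp, and summits a median of 527 and 538 bp away. Only 27.9% were matched one to one, and the 10951 raised members shared 8161 distinct peaks of r1 and 8102 of r2. In r1, 68.0% of them lay under a peak that also covered another WT peak, against 10.2% of the lowered and 33.1% of all members, and in r2 the shares were 69.3%, 13.4% and 35.4%. Where several WT members lay under 1 MZsox19b peak, each of them was given the fold enrichment of the whole peak. Of the 49168 members that were the strongest WT member under their matched peaks, 7.87% were raised and 21.2% lowered, and of the other 15450 members 45.8% were raised and 2.14% lowered. Among one-to-one members 3060 were raised (8.30%) and 7876 lowered (21.4%). These shares keep the ranks among all members. Ranked anew among themselves, 13.6% of the strongest WT members were raised and 13.2% lowered. Of the one-to-one members 5314 were then raised (14.4%) and 5073 lowered (13.8%). Ranking a set within itself brings raised and lowered members near balance. Whether the excess of lowered members in both subsets came from ranking them among all members was therefore not tested.

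For this reason the sites with the largest shifts were taken from one-to-one members only. They were also required to be called when ranked by the deposited −log10 q, and to have both MZsox19b summits within 500 bp of the WT summit. These rules left 1634 raised members without WT H3K4me3, 769 raised with it, 4021 lowered without it and 2931 lowered with it. The 5 members of each set with the largest smaller shift follow, with positions in danRer11. At 4 of the 10 lowered sites among them, and at none of the 10 raised ones, the short peaks of r1 and r2 lay side by side without overlapping.

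Among lowered members without WT H3K4me3, the largest shift was on chromosome 6 from 19869621 to 19871005. Its fold enrichment was 12.4 in WT, 2.25 in r1 and 1.97 in r2, or percentiles 96.9, 6.78 and 2.64, and its width fell from 1385 bp to 163 and 286 bp. MZspg kept a peak of 15.2-fold there, so this candidate enhancer was strong in WT and MZspg and held only weak peaks in both MZsox19b libraries. Those of r1 and r2 did not overlap each other. On chromosome 7 from 51437141 to 51438919 the values were 11.8 in WT, 2.25 and 1.97, and MZspg had no peak. On chromosome 14 from 37637020 to 37637580 they were 11.5, 2.25 and 1.97, with 6.06 in MZspg. Both sites fell from percentiles of 96.5 and 96.3 in WT to 6.78 in r1 and 2.64 in r2. The remaining 2 lay on chromosome 3 from 13220095 to 13221259 (8.44, 2.15 and 1.91-fold) and on chromosome 15 from 12728793 to 12730003 (7.40, 2.06 and 1.91-fold). The former had 11.4-fold enrichment in MZspg and the latter no MZspg peak.

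Among lowered members with WT H3K4me3, the peak on chromosome 21 from 15436253 to 15437790 had 11.4-fold H3K27ac enrichment in WT, 2.06 in r1 and 2.04 in r2. The H3K4me3 peak there, 31.1-fold in WT, was absent from the MZsox19b H3K4me3 list. On chromosome 20 from 12643669 to 12644635 the H3K27ac values were 7.50, 2.06 and 2.16, and WT H3K4me3 of 29.4-fold also had no counterpart in MZsox19b. At the other 3 an H3K4me3 peak remained at a lower fold enrichment. On chromosome 23 from 17354506 to 17357046, H3K27ac was 13.1, 2.53 and 2.16-fold and H3K4me3 59.2-fold in WT and 8.66-fold in MZsox19b. On chromosome 20 from 46874116 to 46874498, H3K27ac was 6.75, 2.15 and 2.04-fold and H3K4me3 16.7 and 8.84-fold. On chromosome 15 from 28801860 to 28802305, H3K27ac was 7.03, 2.25 and 2.16-fold and H3K4me3 12.6 and 8.75-fold. These 5 sites were chosen among peaks with WT H3K4me3, so the mark could be missing in a mutant but not in WT. In MZspg, H3K27ac at these sites, in the order given, was 4.17, 8.14, 3.38, 4.17 and 2.38-fold. It was thus below WT at all but the site on chromosome 20 from 12643669. MZspg had no H3K4me3 peak on chromosomes 21 and 23. At the other sites, in the order given, its H3K4me3 was 16.6, 4.04 and 4.76-fold, also below WT.

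Among raised members with WT H3K4me3, chromosome 5 from 47287322 to 47287483 had 1.97-fold H3K27ac enrichment in WT, 13.4 in r1 and 9.41 in r2. H3K4me3 there was 9.48-fold in WT and 72.5-fold in MZsox19b. On chromosome 3 from 10842330 to 10842746 the H3K27ac values were 1.88, 10.2 and 9.35 and the H3K4me3 values 4.51 and 26.2. On chromosome 13 from 38800672 to 38800851 they were 2.17, 11.1 and 9.73 for H3K27ac and 3.69 and 17.3 for H3K4me3. Both fold enrichments were higher in MZsox19b at these 3 sites, while the H3K4me3 list of MZsox19b was higher in general, with a median fold enrichment of 5.99 over all its peaks against 3.10 in WT. The other 2 did not show this. Chromosome 20 from 25762205 to 25762503 had H3K27ac values of 1.81, 10.0 and 9.79 but H3K4me3 of 3.07 and 2.65, and chromosome 4 from 35018471 to 35018879 had 2.00, 9.74 and 10.7 with an H3K4me3 peak of 2.04-fold in WT only.

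Among raised members without WT H3K4me3, chromosome 7 from 43060262 to 43060817 had 1.57-fold enrichment in WT, 11.4 in r1 and 22.4 in r2. It was the site among the 20 with the largest difference between the replicates, 14.2 points. Chromosome 2 from 34538270 to 34538438 had 2.06, 13.6 and 14.9-fold. Chromosome 10 from 14208701 to 14208881 had 2.16, 20.4 and 12.7-fold. On these last 2 chromosomes the matched MZsox19b peaks were broad, 7226 and 10121 bp on chromosome 2 and 6674 and 5610 bp on chromosome 10, around WT peaks of 169 and 181 bp. Chromosome 9 from 46031544 to 46031711 had 2.16, 12.5 and 10.3-fold, and chromosome 13 from 20417780 to 20417959 had 2.06, 11.2 and 8.90-fold. Of these 5 sites, the one on chromosome 10 had an MZspg peak, of 3.48-fold.

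Members with and without WT H3K4me3 differed in how often they moved. Of the 26273 with the promoter mark, 2757 were raised (10.5%, 95% Wilson interval 10.1 to 10.9) and 3820 lowered (14.5%, 14.1 to 15.0). Of the 38345 without it, 8194 were raised (21.4%, 21.0 to 21.8) and 6948 lowered (18.1%, 17.7 to 18.5). These intervals, like all given here, cover counting error only, and neighbouring peaks are not independent. The background over all members was 16.9% raised and 16.7% lowered. The median absolute shift was 12.8 points (r1) and 15.6 points (r2) with the mark and 20.7 and 22.2 points without it. Between the replicates it was 7.85 and 7.98 points, so the replicates differed about equally in both classes. Restricted to one-to-one members, 5.77% with and 10.5% without the mark were raised, and 18.4% and 24.0% were lowered. Ranked among one-to-one members only, 10.6% with and 17.8% without the mark were raised, and 10.6% and 16.5% were lowered. Raised and lowered members were then about equal in number with the mark (1843 and 1847), and raised were more frequent without it. The excess of lowered members without the mark was not seen with r2 alone. With r2 alone the shares lowered were 24.9% with H3K4me3 and 24.7% without it, and with r1 alone 21.0% and 24.0%.

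The classes also differed in strength, with a median WT fold enrichment of 3.47 with H3K4me3 and 2.72 without it, and this matters since a member cannot rise 20 points from the top of the order or fall 20 from the bottom. Compared within deciles of the WT percentile, lowered members were most unequal at the strong end. In the top WT decile, 586 of 1688 members without H3K4me3 were lowered (34.7%, 32.5 to 37) and 245 of 4761 with it (5.15%, 4.55 to 5.81). In the eighth WT decile the shares were 42.0% and 29.4%, and in the fourth 9.50% and 8.11%. Weighted to the WT deciles of the H3K4me3 class, members without the mark were raised in 12.6% and lowered in 27%, against 10.5% and 14.5% with it. Among one-to-one members, ranked among all members, the raised side was reversed in WT deciles 2 to 6. In decile 2, 19.3% without H3K4me3 were raised and 23.5% with it, and in decile 4, 8.70% and 12.1%. In deciles 1, 7 and 8 slightly more were raised without it, as in decile 1 with 31.9% and 30.5%. Lowered one-to-one members stayed more frequent without the mark from decile 3 up, as in decile 9 with 54.7% and 20.4%.

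The picture changed when members were binned by the mean of their WT and MZsox19b percentiles, which treats the genotypes alike. In the sixth decile of that mean, 32.2% without H3K4me3 were raised against 17.3% with it, while 23.9% and 24.4% were lowered. In the ninth, 16.2% and 4.89% were raised and 9.89% and 5.23% lowered. From decile 2 to 6 of the mean, lowered members were more frequent with the mark, as in decile 5 with 29.4% against 25.9% without it. Weighted in this way, members without H3K4me3 were raised in 18.7% and lowered in 15.0%, against 10.5% and 14.5% with it. Weighted over the deciles, greater movement of sites without H3K4me3 was thus found over all members under both ways of binning. It lay mainly in the lowered members when sites were aligned on WT strength and mainly in the raised members when aligned on the mean. Among one-to-one members aligned on WT strength, it held for the lowered side and not for the raised side in most deciles. Binning by the mean was not repeated for one-to-one members.

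**Figure D2:**
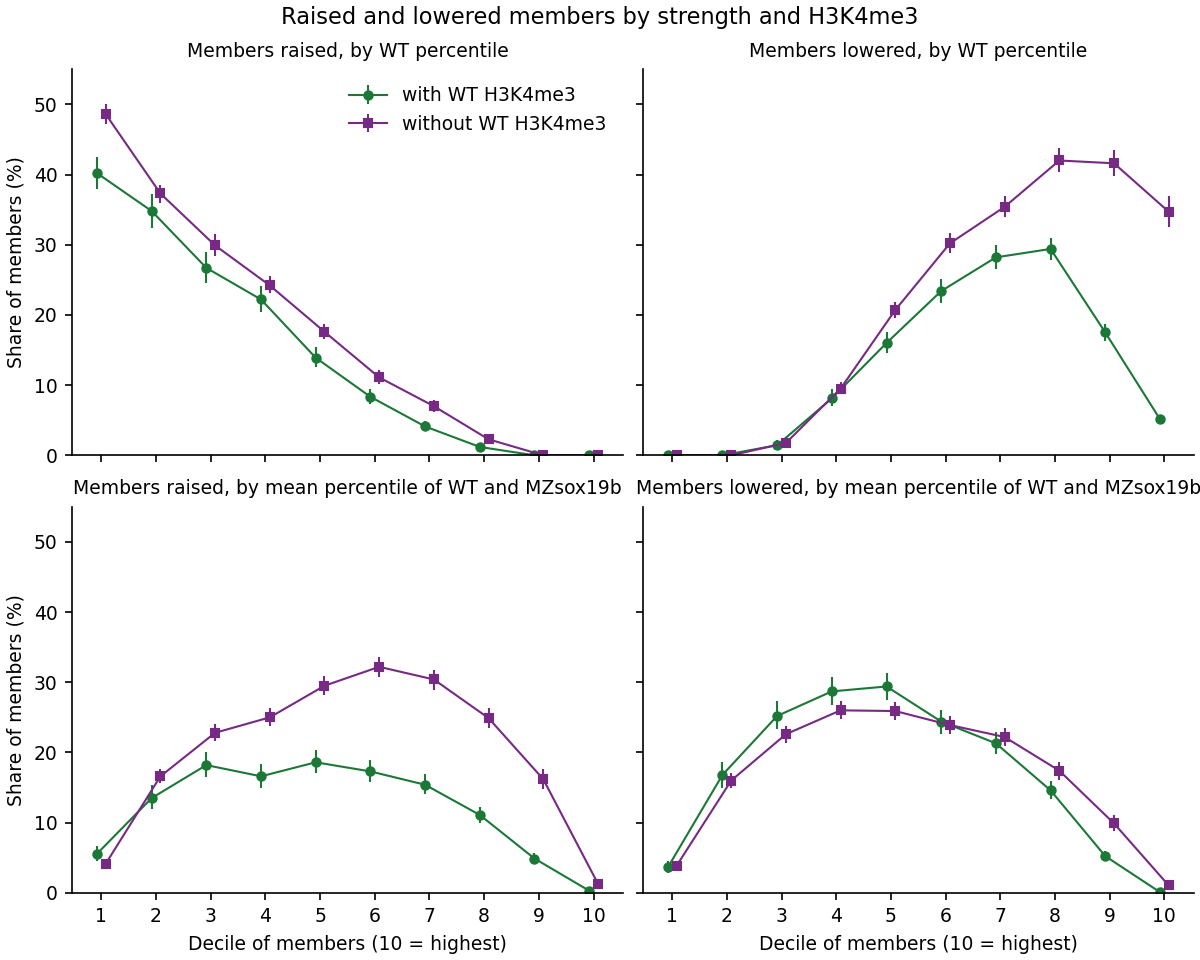
Share of members raised (left) and lowered (right) in both replicates (y axis, %) by decile (x axis, 10 strongest) of the WT percentile (top) and of the mean percentile of WT and MZsox19b (bottom), with WT H3K4me3 (green circles) and without (purple squares); bars are 95% Wilson intervals. In the top WT decile 34.7% of members without H3K4me3 and 5.15% of those with it were lowered, whereas in the sixth decile of the mean the shares were 23.9% and 24.4%.

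H3K4me3 was measured in separate libraries, which the calls did not use other than to define the class. Where both genotypes had an H3K4me3 peak, its median shift had the sign of the H3K27ac call. Among members with an H3K4me3 peak in both WT and MZsox19b, percentiles of H3K4me3 fold enrichment shifted by a median of −6.79 points at the 2027 lowered members (quartiles −14.5 and 0.232), −0.204 points at the 15420 that were neither (−5.50 and 5.22) and 2.99 points at the 2024 raised members (−2.66 and 10.8). The shift was above 0 at 25.9% of the lowered, 48.7% of the others and 64.3% of the raised. Among one-to-one members the medians were −6.20, −0.311 and 4.80 points. The shifts were small beside those of H3K27ac, and with 1 library for each genotype no test over samples was possible. Raised members were called where WT H3K27ac was low and lowered members where it was high, and WT H3K4me3 was subtracted here. Whether the signs of these medians follow in part from the calling rule was not tested. An MZsox19b H3K4me3 peak was present at 53.1% of the lowered members with WT H3K4me3, at 78.3% of the others and at 73.4% of the raised. By presence of the peak, the raised members thus stood below the others too.

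In MZspg, the H3K4me3 median stood above that of the other members at the raised members and close to it at the lowered members. Its median shift from WT was 0.152 points at the lowered (n = 1234), 0.0902 points at the others (n = 11147) and 2.00 points at the raised members (n = 928, 59.6% above 0). Among one-to-one members these medians were 0.455, 0.274 and 3.43 points. Both H3K4me3 comparisons share the WT library, so the limit set by the calling rule holds for both, and the difference between the mutants was not tested.

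H3K27ac in MZspg, set beside the MZsox19b values without a test because both comparisons share the WT library, had medians of the same sign. The WT values subtracted here are those the call used, and raised members were low and lowered members high in WT. The signs of the MZspg medians are therefore set in part by the calling rule, and likeness between the mutants was not tested. Members lowered in MZsox19b had a median MZspg shift of −17.8 points (n = 6696, quartiles −36.1 and −1.89), raised members 24.9 points (n = 6418, 3.12 and 46.4) and the others −0.975 points (n = 28808). In the MZsox19b comparison the lowered members had a median percentile of 67.5 in WT, 21.4 in r1 and 19.7 in r2. The raised members had 19.0, 70.6 and 72.2. The call was made on these percentiles, so the contrast between the groups is set in part by the calling rule. A MZspg peak was found at 58.2% of the lowered members without WT H3K4me3, 56.1% of the raised and 56.0% of the others, so the presence of a peak in MZspg hardly differed by call in this class. With WT H3K4me3 the shares were 69.5% of the lowered, 66.1% of the raised and 80.3% of the others.

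**Figure D3:**
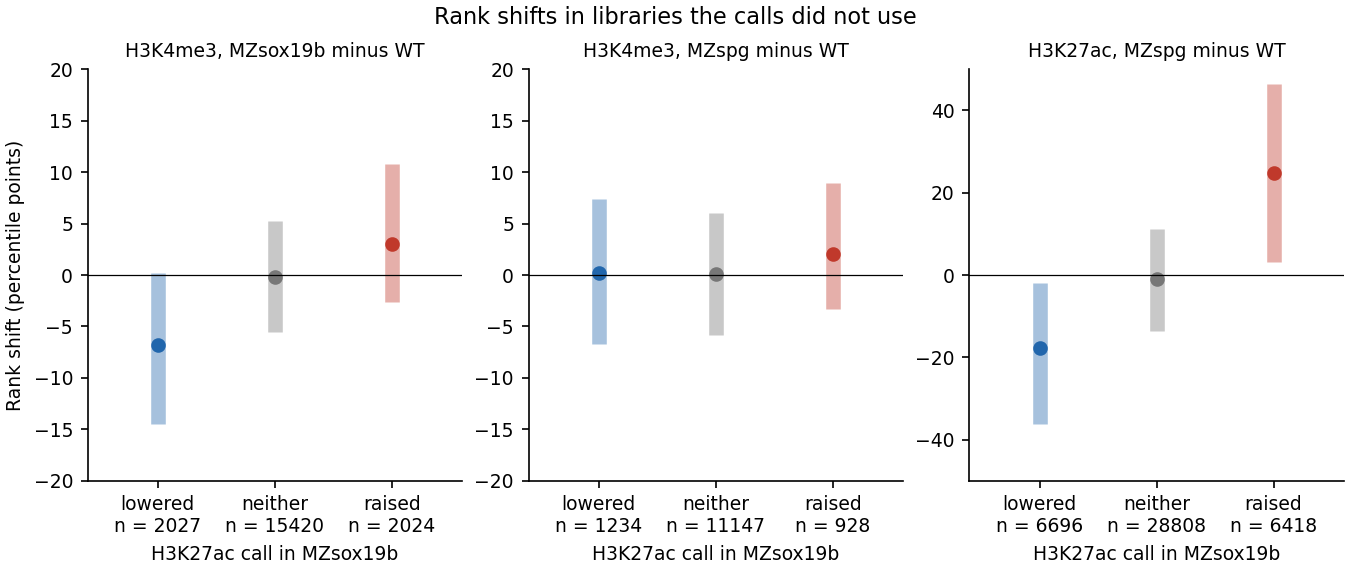
Rank shifts (y axis, percentile points, with their own scale in the right panel) of H3K4me3 in MZsox19b and in MZspg and of H3K27ac in MZspg, each minus WT, at members called lowered, neither or raised by H3K27ac in MZsox19b; dots are medians, bars the quartiles, and n the members with a peak in both libraries. H3K4me3 medians in MZsox19b go from −6.79 to 2.99 points and in MZspg from 0.152 to 2.00 points.

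Width moved together with rank. Peaks at the members were wider in MZsox19b in general, with a median width of 332 bp in WT, 839 bp in r1 and 960 bp in r2, and median log2 width ratios to WT of 1.00 and 1.20. Width shifts were therefore taken relative to these medians, and a member was called widened or narrowed when the relative log2 ratio was at least 1 in the same direction in both replicates and exceeded the difference between them. So 12649 members were widened (19.6%) and 6308 narrowed (9.76%). Without the centring, 26603 were widened (41.2%) and 878 narrowed (1.36%). With shifts of 20 points in width percentile instead, 12224 were widened and 13484 narrowed, so which direction was more frequent depended on the measure. The median absolute relative log2 width shift was 0.865 against r1, 0.932 against r2 and 0.346 between the replicates.

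Widening mostly meant that a narrow WT peak lay in a long MZsox19b peak. Widened members had a median width of 232 bp in WT, 2397 bp in r1 and 2787 bp in r2, and 17.3% of them were one to one. Narrowed members had medians of 580, 337 and 400 bp, and 79.7% were one to one. One-to-one members had median log2 width ratios of 0.579 (r1) and 0.697 (r2), below the medians used for centring. By the rule above 5.93% of them were widened and 13.6% narrowed. Centred on their own medians, 11.6% were widened and 4.34% narrowed, so the order of the directions among them depended on the centring. Of the raised members 66.8% were widened and 0.128% narrowed, and of those matched one to one 33.1% were widened. Of the lowered members 40.4% were narrowed and 0.557% widened. Widening was more frequent without WT H3K4me3 (25.9%) than with it (10.4%), whereas narrowing was about as frequent (9.52% and 10.1%).

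The 3 one-to-one members that widened most lay on chromosome 17 from 27402651 to 27402774 (124 bp in WT, 9620 bp in r1 and 9717 bp in r2), on chromosome 2 at the raised site from 34538270 to 34538438 (169, 7226 and 10121 bp) and on chromosome 1 from 48903458 to 48903579 (122, 4975 and 4970 bp). These were short WT peaks within broad MZsox19b domains. The 3 that narrowed most were broad WT peaks over which each replicate had a short peak, and at all 3 the short peaks of r1 and r2 lay at different places and did not overlap each other. They lay on chromosome 14 from 32156857 to 32161168 (4312, 152 and 164 bp, with 7.59, 1.87 and 1.91-fold enrichment), on chromosome 8 from 28285952 to 28289199 (3248, 202 and 233 bp) and on chromosome 18 from 42353256 to 42356345 (3090, 187 and 234 bp). The site on chromosome 14 had 5.56-fold enrichment in MZspg, and the other 2 had no MZspg peak.

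By chromosome, chromosome 4 had the highest share of raised and the lowest share of lowered members. It held 10857 of the members, more than any other chromosome, and 70.0% of its WT peaks were members. Of these, 2403 were raised (22.1%, 21.4 to 22.9) and 1215 lowered (11.2%, 10.6 to 11.8). Over the other 24 chromosomes the share raised ran from 13.0% to 20.1% and the share lowered from 14.0% to 20.9%. One-to-one members of chromosome 4 were raised in 11.6% and lowered in 17.0%, against 7.69% and 22.2% elsewhere. Chromosome 22 had a lower share of lowered one-to-one members, 16.8%. Ranked among one-to-one members only, the shares on chromosome 4 were 19.5% raised and 10.3% lowered, so the order of the directions turned with the ranking. Weighting the other chromosomes to the WT deciles of chromosome 4 gave 16.8% raised and 18.4% lowered. On chromosome 4, 16.3% of the members with H3K4me3 and 26.6% of those without it were raised, against 10.5% and 21.4% over all chromosomes. The share raised was 24.0% of 1803 members from 0 to 30 Mb and 21.8% of 9054 from 30 to 80 Mb. The replicates differed by a median of 8.73 points on chromosome 4 and 7.76 points elsewhere.

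**Figure D4:**
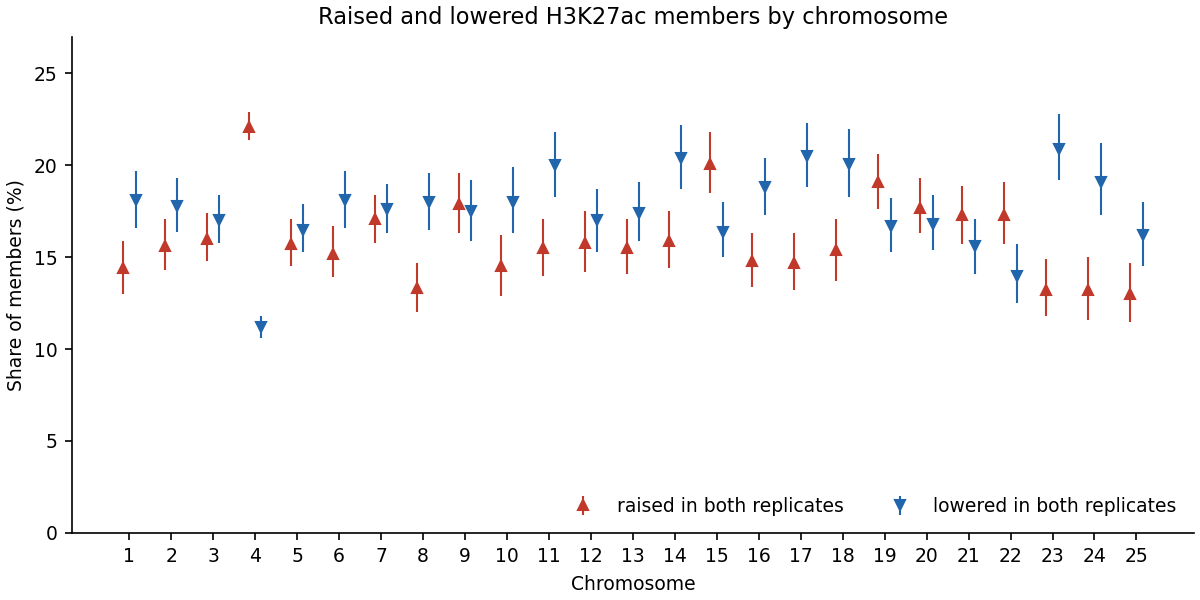
Share of the members of each chromosome (x axis) that were raised (red, pointing up) and lowered (blue, pointing down) in both MZsox19b replicates (y axis, %), with 95% Wilson intervals. Chromosome 4, at 22.1% raised and 11.2% lowered, has the highest raised and the lowest lowered share of the 25 chromosomes.

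Windows of 1 Mb hold far fewer members than a chromosome, so their shares carry a larger counting error, for which no allowance was made. Over the 1183 windows with at least 20 members the median share raised was 14.3% (5th and 95th percentile 3.45 and 31.5) and the median share lowered 16.7% (5.01 and 35.9). The windows with the highest raised shares began at 39000001 on chromosome 5 (19 of 33 members, 57.6%), at 39000001 on chromosome 3 (78 of 149, 52.3%) and at 32000001 on chromosome 23 (10 of 20, 50%). The window of chromosome 3 held many members, but its called members shared 40 distinct peaks of r1 and 47 of r2. The highest lowered shares were found from 18000001 on chromosome 15 (13 of 20, 65.0%), from 10000001 on chromosome 21 (13 of 24, 54.2%) and from 30000001 on chromosome 17 (25 of 47, 53.2%).

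Gene names were available for a part of chromosome 1, at members that overlap an accessible region which the study lists with a WT-expressed gene within 20 kb. There were 100 such members, near 78 genes. Of these, 10 were raised (10.0%, 5.52 to 17.4) and 23 lowered (23.0%, 15.8 to 32.2). Over the whole of chromosome 1 the shares were 14.4% and 18.1%, and over all members 16.9% and 16.7%. WT strength was not matched in this comparison. The list is partial and the genes below were chosen after their values were seen, so they illustrate the sites and carry no test. A gene within 20 kb need not be the one a site acts on.

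The lowered member near efnb2b, which encodes a ligand of Eph receptors, lay from 7639123 to 7640719. Its fold enrichment was 8.06 in WT, 2.62 in r1 and 2.80 in r2, a fall from percentile 92.3 to 16.8 and 21.2, while MZspg had 13.9-fold. The short peaks matched to it in r1 and r2 did not overlap each other. Near lef1, a transcription factor of the Wnt pathway, the member from 49811994 to 49812702 had 3.75-fold enrichment in WT, 2.81 in r1 and 2.67 in r2, with shifts of −49.4 and −52.6 points. Both sites lacked WT H3K4me3.

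Near rbm47, which encodes an RNA-binding protein, 4 of 5 members were lowered, and 3 of these 4 shared their r2 peak with another WT peak. The member from 19397748 to 19398544 had values of 4.22, 2.43 and 2.42 in WT, r1 and r2. The one from 19401290 to 19402174 had 5.62, 2.90 and 3.12, and the one from 19387565 to 19389013 had 4.87, 2.81 and 3.05. The strong member from 19414766 to 19417216 had 13.0, 8.71 and 7.89, just past the threshold with shifts of −20.5 and −20.4 points. The member from 19406810 to 19411390 had 11, 11.2 and 10.5 and was not called. Near btbd3a, which encodes a BTB-domain protein, both members were lowered, from 6.37 in WT to 3.09 and 3.50 and from 8.44 to 4.68 and 4.07. At the former, the peaks matched in r1 and r2 did not overlap each other.

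Near spry2, an inhibitor of receptor tyrosine kinase signalling, only 1 of 4 members was lowered. It lay from 5268083 to 5270290 with 4.59-fold enrichment in WT, 4.15 in r1 and 3.05 in r2. The strongest of the other 3 had 11.5, 12.5 and 11.6, at percentiles 96.3, 85.6 and 87.3, so that the same locus held a lowered site and sites that were not called.

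Raised members with H3K4me3 lay near fbxw7, the substrate-binding subunit of a ubiquitin ligase, and near rfc1, a subunit of the clamp loader of DNA replication. At fbxw7, the member from 25141671 to 25142161 had 2.72-fold enrichment in WT, 18.5 in r1 and 16 in r2, and MZspg had 15.9-fold. It was 1 of 2 WT peaks under each matched MZsox19b peak. At rfc1 the values were 2.26, 4.21 and 3.50 with a one-to-one match. At knop1, a one-to-one raised member had 2.34, 9.46 and 8.65-fold H3K27ac enrichment, with H3K4me3 of 4.34-fold in WT and 17.4-fold in MZsox19b. Another member near knop1, from 54663697 to 54665716, was lowered with values of 6.47, 3.74 and 4.26. Near irs2a, which encodes an adaptor of insulin signalling, a raised member without H3K4me3 had values of 2.34, 7.68 and 7.00. Near irf2a, an interferon regulatory factor, another had 2.16, 4.49 and 4.2. Each was 1 of 2 WT peaks under a shared MZsox19b peak. A one-to-one member near irs2a with H3K4me3, from 29215491 to 29216201, had 5.44, 7.12 and 5.98. With shifts of −14.6 and −18.8 points it was not called, and neither were the other members listed near irf2a.

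Next to atp1a1a.1, which encodes a catalytic subunit of the sodium-potassium ATPase, neighbouring members moved in opposite directions. The member from 1713669 to 1714076, with H3K4me3, had 3.19-fold enrichment in WT, 25.3 in r1 and 19.7 in r2. It was 1 of 2 WT peaks under matched MZsox19b peaks of 2427 bp (r1) and 2565 bp (r2). The member from 1714541 to 1716788, without H3K4me3, had 5.90, 3.74 and 3.75. Neither member was matched one to one. At hmgb2a, which encodes a chromatin protein of the HMG-box family, a strong member kept its place with 15.7, 25.7 and 22.8-fold enrichment and shifts of −1.77 and −0.652 points.

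Sites merged into long MZsox19b peaks could be seen near atf7ip, which encodes a cofactor of the histone methyltransferase Setdb1. There 5 members between 45579557 and 45593001, with WT fold enrichments of 5.90 to 14.6, lay under 1 peak of r1 from 45578090 to 45596603 at 35.6-fold. The r2 peak over them ran from 45578145 to 45613586, had 24.7-fold enrichment and covered 13 WT peaks. These members were all strong in WT, so their rank shifts stayed below 13 points and none was called raised.

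**Figure D5:**
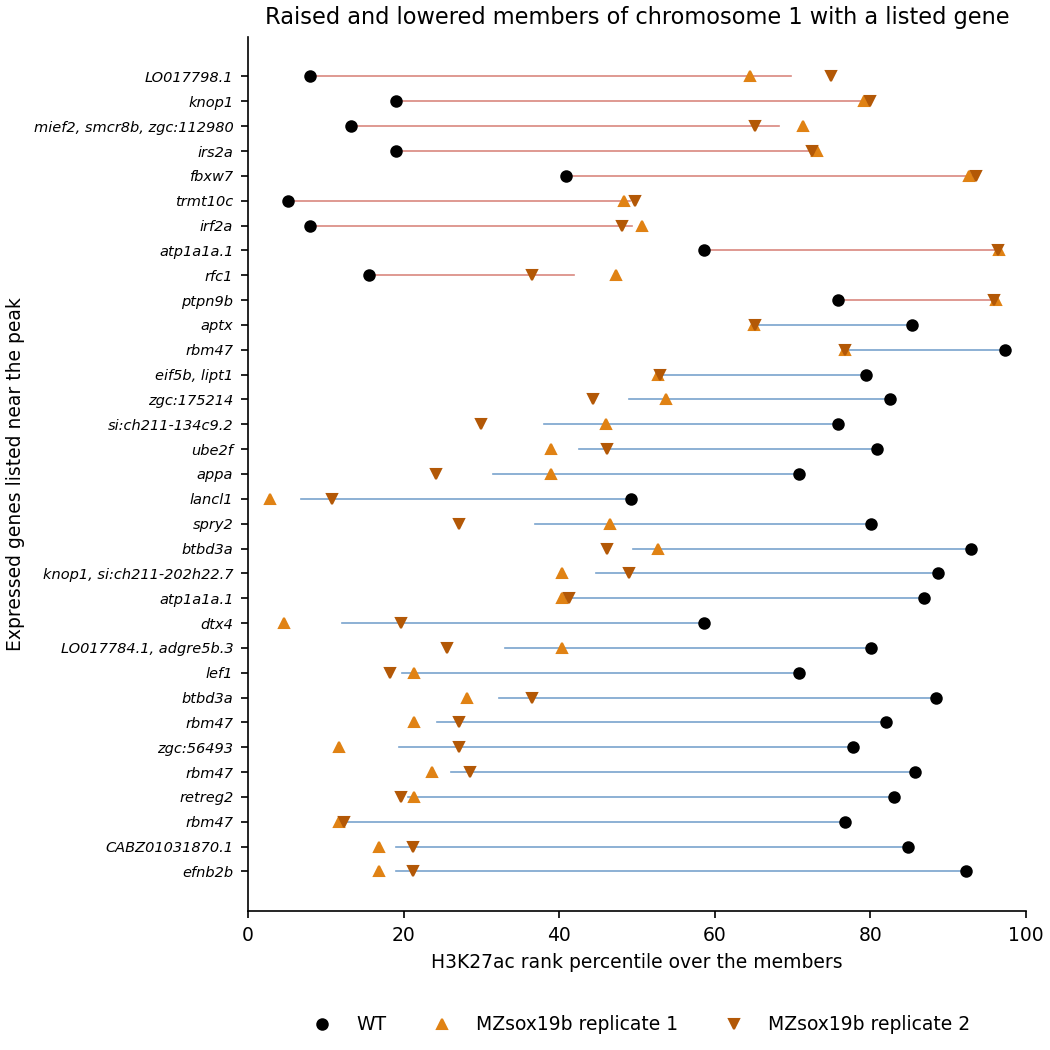
H3K27ac rank percentile (x axis) in WT (black), r1 (light triangles) and r2 (dark triangles) for the 33 raised and lowered members of chromosome 1 with a listed gene (y axis); lines join WT to the mean of the replicates, red for raised and blue for lowered members. The member near efnb2b has the values 92.3 in WT, 16.8 in r1 and 21.2 in r2; the call itself required the replicates to lie closer to each other than to WT.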

How the data were processed

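H3K27ac and H3K4me3 ChIP-seq of whole embryos was analysed from 7 deposited peak lists. Per the labels, the authors aligned reads to danRer11 with Bowtie2 2.3.2.2 and called peaks for each library with MACS2 against pooled inputs. Each deposited list gives fold enrichment over input (a ratio), a score, −log10 p and −log10 q, and the summit offset in bp. Lists hold no read counts, and r1 and r2 were kept apart. The 7 inputs were not used here.

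Peaks on chromosomes 1 to 25, without chromosome 16 from 36 to 37 Mb, were matched with numpy 2.4.6 and pandas 2.3.3 by an overlap of at least 1 bp. The overlapping peak of highest fold enrichment stood for a member. Percentiles gave tied values their mean rank. Linear models used limma 3.58.1 (R 4.3.3), and scripts were tested on simulated data. Starts are 1-based.

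Named peaks were the 5 one-to-one members with the largest smaller shift in each of 4 sets, 3 widened, 3 narrowed, and 3 windows of 1 Mb each way. Members, rules and lists were chosen with earlier results of these data known. Gene lists and motif searches planned at first were not applied, since no danRer11 genome or annotation was used here. Gene names on chromosome 1 come from a study table read only in part (1973 regions, 482 with a gene). Alternatives covered ranking, matching, thresholds, list length, anchor and replicates. The study describes the MZsox19b libraries as biological replicates from separate ChIP experiments.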

Additional observations from a re-analysis of the deposited data

Results flagged for a closer look

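Signal was found in places left out of the comparisons. On sequences other than chromosomes 1 to 25, which are alternate and unplaced sequences of the assembly, the WT list held 16087 peaks, of which 8770 were overlapped in both MZsox19b replicates. Ranked with all other members, 1307 of them were raised (14.9%, 95% Wilson interval 14.2 to 15.7) and 1408 lowered (16.1%, 15.3 to 16.8). On chromosome 16 from 36 to 37 Mb, 47 of 234 WT peaks were overlapped in both replicates, and 15 of these were raised (31.9%, 20.4 to 46.2) and 10 lowered (21.3%, 12.0 to 34.9). No cause was tested for either.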

How the results depend on the processing

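Of 162 values recomputed under alternatives, 134 stayed within 1.5 times the value reported (counts and shares) or within their spread (median shifts). Counts and shares cannot change sign, and the few median shifts that were recomputed kept theirs. Comparisons between values were less stable. Percentiles over the whole lists gave 19736 raised and 2298 lowered members. With H3K4me3 20.0% were then raised and 2.35% lowered, and without it 37.8% and 4.38%. Taken among themselves, the 36878 one-to-one members gave 5314 raised (14.4%) and 5073 lowered (13.8%), 4274 widened (11.6%) and 1599 narrowed (4.34%). A threshold of 30 points left 6818 lowered, and the upper 50% of the WT list 6816 raised and 6813 lowered. The strongest WT peak under each mutant peak, ranked anew, left 6702 raised (13.6%) and 6506 lowered (13.2%) of 49168, and 9.60% lowered with H3K4me3. This alternative, leaving out chromosome 4 and weighting by the mean percentile were chosen after seeing the data. Lowered members with H3K4me3 were 9.08% when anchored on r1 peaks, below the share raised, and 8.09% with H3K4me3 peaks of at least 8-fold. With H3K4me3 counted within 1 kb, 14.5% of that class were raised and 13.8% lowered. Weighted to the WT deciles, 12.6% without H3K4me3 were raised. Uncentred widths gave 26603 widened and 878 narrowed, and width percentiles 13484 narrowed against 12224 widened. Median centring in limma gave 3433 higher and 3862 lower.

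With 1 replicate left out, the rule asks 1 replicate only and calls more members. Leaving out each in turn gave 14.9% to 16.2% raised and 21.0% to 24.9% lowered with H3K4me3, and 10476 to 12154 narrowed. Without r1 the shares lowered were 24.9% with and 24.7% without H3K4me3.

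No paired analysis was possible because WT H3K27ac was 1 library, which pairs with neither replicate. Depth at single peaks is unknown, so weak peaks near the calling threshold (−log10 q from 1.31 in WT) are the least certain. Counting error alone is covered by the intervals.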
